A study of Mus musculus with 6 samples.

Results

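The transcripts of the mitochondrial genome were followed in TCMK1 cells, an established mouse line with renal tubular epithelial character, after overexpression of the OTU-type deubiquitinase YOD1. The members were all rows of the deposited gene table whose gene name begins with mt-. This rule gave 37 of 28789 genes, namely 13 mRNAs, 2 rRNAs and 22 tRNAs, which is the full known gene set of the mouse mitochondrial genome. There were 3 libraries labelled as YOD1 overexpression with Ang II and 3 labelled as control with Ang II, so angiotensin II was given to every sample. The sources used here do not give the means of YOD1 delivery, or say whether control cells received a vector. Nothing in the labels ties the replicates to separate cultures, so the p-values cover only variation among these libraries, which could be technical.

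Values are FPKM, fragments scaled to transcript length and to the mapped fragments of the library, from paired-end libraries. The labels' protocols describe selection of poly(A) RNA, but their wording also names poly(A)- fractions and adipose material, so the selection is uncertain. Read depth is unknown from FPKM. The values of a library summed to between 314172 and 352209 FPKM, and 22045 to 23374 genes per library were above 0. Yod1 itself (ENSMUSG00000046404) had 1.73, 7.56 and 1.86 FPKM in YOD1 libraries 1, 2 and 3, against 0.842, 0.757 and 0.684 FPKM in control libraries 1, 2 and 3. The groups did not overlap, and the difference missed the limma threshold (log2 fold change 1.21, SE 0.37, adjusted p = 0.141). Tubular epithelial markers summed to 781 to 1019 FPKM in YOD1 libraries and 701 to 818 FPKM in controls, led by Krt18, with Cdh16 and Pax8 present and Slc34a1 and Lhx1 under 1 FPKM throughout. Fibroblast markers summed to 6.13 to 12.9 FPKM in YOD1 libraries and 11.998 to 14.3 FPKM in controls, immune cell markers to 12.6 to 15.6 FPKM in YOD1 libraries and 12.9 to 23.0 FPKM in controls, and endothelial markers to 1.34 to 2.24 FPKM in YOD1 libraries and 0.730 to 1.40 FPKM in controls. Nearly all of the immune sum was Cd68, and no marker was listed at 0 in every library. The part of other cells in the results below was not tested.

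Mitochondrial DNA is a small circle read on both strands into long precursor RNAs. The tRNAs sit between the longer genes like punctuation, and RNase P and RNase Z cut at their ends, which frees the mRNAs and rRNAs. The mRNAs encode core subunits of respiratory complexes I, III and IV and of ATP synthase, while the rRNAs and tRNAs serve the ribosomes inside the organelle. Kidney tubule cells rely heavily on oxidative phosphorylation for transport. Most mature mRNAs receive poly(A) tails, the rRNAs receive short tails and mature tRNAs end in CCA, so libraries selected for poly(A) do not count the biotypes on an equal footing.

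Of the members, 28 are read from the heavy-strand precursor and 9 from the light-strand precursor, namely mt-Nd6 and 8 tRNAs. The annotated tRNAs are 59 to 75 bases long, whereas the mean insert of the libraries was 300 bp (± 50 bp) per the labels' protocols. The strand of the libraries is not stated, so reads over mt-Nd6 and these 8 tRNAs cannot be assigned to the light-strand or the heavy-strand precursor. Strands named below are those of the annotation. For the same reason, reads where mt-Nd5 and the antisense mt-Nd6 overlap cannot be told apart. The same holds, whatever the strand, for the short overlaps of mt-Atp8 with mt-Atp6 and of mt-Nd4l with mt-Nd4, which lie on the same strand.

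The tRNA genes on which the comparison turned are shown first. The 5 neighbours mt-Tw, mt-Ta, mt-Tn, mt-Tc and mt-Ty lie between mt-Nd2 and mt-Co1 and surround the origin of light-strand replication. mt-Tp and mt-Tk are the 2 members with the lowest p-values. Sequences are given 5′ to 3′ as DNA from GENCODE M21 transcripts, matched by gene identifier, with positions on GRCm38, which is not the build in the submitters' notes (mm8), and the anticodon in capitals.
mt-Tw, tryptophan, chrM:4950-5016, plus strand: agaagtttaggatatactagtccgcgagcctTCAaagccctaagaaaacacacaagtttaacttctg
mt-Ta, alanine, chrM:5018-5086, minus strand: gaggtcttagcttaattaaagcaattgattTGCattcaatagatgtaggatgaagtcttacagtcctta
mt-Tn, asparagine, chrM:5089-5159, minus strand: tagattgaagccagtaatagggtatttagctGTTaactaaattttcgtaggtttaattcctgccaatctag
mt-Tc, cysteine, chrM:5192-5257, minus strand: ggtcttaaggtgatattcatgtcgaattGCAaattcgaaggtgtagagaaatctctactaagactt
mt-Ty, tyrosine, chrM:5260-5326, minus strand: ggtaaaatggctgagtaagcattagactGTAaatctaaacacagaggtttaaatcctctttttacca
mt-Tk, lysine, chrM:7700-7764, plus strand: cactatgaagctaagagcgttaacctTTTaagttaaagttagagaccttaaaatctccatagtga
mt-Tp, proline, chrM:15356-15422, minus strand: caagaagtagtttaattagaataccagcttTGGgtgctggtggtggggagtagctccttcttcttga

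Across the mitochondrial genome the biotypes differed in their values. Most tRNAs and both rRNAs had higher means in YOD1 libraries than in controls. The log2 fold changes of most mRNAs lay slightly below 0 (slightly above with median-ratio scaling). Only 36.4% of all tested genes lay above 0, with a median of -0.10, so this was not particular to the mRNAs. Among the mRNAs, mt-Co2 had the largest difference. None of these differences passed the test over all genes. A gene was tested where at least 3 of 6 libraries reached 1 FPKM, and 35 of 37 members did so, within 11483 tested genes. mt-Tf, the phenylalanine tRNA, had 0.231, 0.951 and 0.391 FPKM in YOD1 libraries and 0.296, 0.307 and 0.220 FPKM in controls. mt-Tv, the valine tRNA, had 0.462, 0.705 and 0.828 FPKM in YOD1 libraries and 0.338, 0.249 and 0.270 FPKM in controls. These are the tRNAs on either side of mt-Rnr1, and both stayed below 1 FPKM in all 6 libraries.

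By limma on log2(FPKM + 1), 0 of 35 tested members passed an adjusted p of 0.05, where 0.479% of all tested genes passed (0.444% higher and 0.0348% lower), and the members' adjusted p ran from 0.0931 to 0.989. At an unadjusted p under 0.05 in limma, 11 members were higher and 1 was lower, where 7.87% of all tested genes were higher and 13% were lower. The groups did not overlap for 9 members that were higher in YOD1 libraries and 1 that was lower, beside 9.77% and 19.1% of all tested genes, and they overlapped for 25. The log2 fold change was above 0 for 24 of 35 members, as it was for 36.4% of all tested genes, whose median was -0.10. Neighbouring members can share fragments, so these counts are not of separate observations. The authors' deposited table lists 3 members with a q under 0.05, which are mt-Tn (q = 0.0310, ratio 1.92), mt-Tp (q = 0.0313, ratio 1.68) and mt-Ta (q = 0.0403, ratio 1.89), all higher in YOD1 libraries, as were 1.33% of all its genes at that q. That table's mark of significance, which also needs an absolute log2 ratio of at least 1, was given to none of the 37 members and to 0.993% of all genes.

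**Figure D1:**
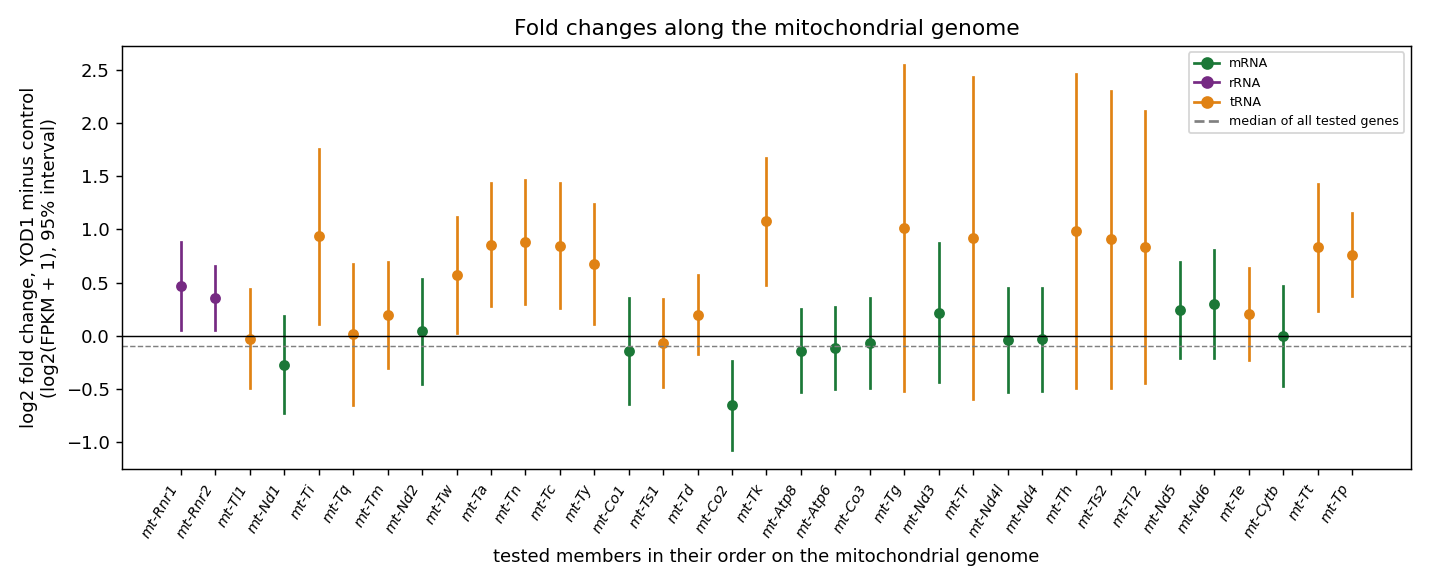
Log2 fold change (YOD1 minus control, log2(FPKM + 1) scale, limma estimate with 95% interval, 3 libraries per group) of the 35 tested members in genome order, coloured by biotype, with the median of all tested genes (-0.10) as a dashed line. Of 20 tRNAs 18 lie above 0, both rRNAs lie above 0, and 9 of 13 mRNAs lie below 0 (5 of 13 with median-ratio scaling). Of all tested genes 36.4% lie above 0. The widest intervals belong to mt-Tg, mt-Tr, mt-Th, mt-Ts2 and mt-Tl2.

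The 13 mRNAs together made up 3.44%, 3.07% and 4.25% of the summed FPKM in YOD1 libraries, against 3.99%, 3.68% and 4.39% in controls. Their share averaged 3.59% ± 0.601 in YOD1 libraries and 4.02% ± 0.354 in controls (SD, n = 3 each), and the groups overlapped (difference -0.431 percentage points, two-sided exact permutation p = 0.4, where 0.1 is the smallest possible with 3 against 3). The difference came to -0.761 when YOD1 library 3 was left out, to -0.174 when YOD1 library 2 was, and to -0.246 when control 3 was. In RNA from a whole culture, fewer cells that hold a transcript and less of it per cell cannot be told apart. The log2 fold changes of the single mRNAs had a median of -0.045, with 9 of 13 below 0. Over all tested genes the median was lower, at -0.10, and 36.4% lay above 0. With median-ratio scaling in place of FPKM 5 of 13 mRNAs lay below 0. Their median was then 0.050, beside -0.020 for all tested genes. YOD1 library 3 was the highest YOD1 library for every mRNA except mt-Co2. Without it the median of the mRNAs was -0.24 and 11 of 13 lay below 0, beside a median of -0.052 for all tested genes.

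Complex I, the NADH dehydrogenase that feeds electrons into the chain, has 7 mitochondrially encoded subunits. mt-Nd1 had 682, 572 and 965 FPKM in YOD1 libraries and 848, 812 and 968 FPKM in controls. YOD1 libraries 1 and 2 lay below all controls and YOD1 library 3 lay among them (log2 fold change -0.27, limma adjusted p = 0.439). mt-Nd2 had 592, 537 and 954 FPKM in YOD1 libraries and 574, 700 and 694 FPKM in controls. mt-Nd3 was the least abundant mRNA, with 142, 116 and 217 FPKM in YOD1 libraries and 84.1, 157 and 173 FPKM in controls. The groups of both overlapped, with YOD1 library 3 the highest of all 6.

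mt-Nd4l had 456, 390 and 673 FPKM in YOD1 libraries and 415, 560 and 566 FPKM in controls. mt-Nd4, with which it shares a transcript in mammals, had 656, 548 and 959 FPKM in YOD1 libraries and 613, 774 and 781 FPKM in controls. Both overlapped in the same way, with YOD1 library 2 lowest and YOD1 library 3 highest. mt-Nd5 had 1142, 1030 and 1678 FPKM in YOD1 libraries and 1059, 1021 and 1110 FPKM in controls. mt-Nd6, the single mRNA of the light-strand precursor, had 816, 686 and 1300 FPKM in YOD1 libraries and 691, 778 and 732 FPKM in controls. YOD1 library 3 stood highest for both, and their groups overlapped. The log2 fold changes were 0.24 for mt-Nd5 and 0.29 for mt-Nd6 (limma adjusted p = 0.501 and 0.456), and 0.029 for both without YOD1 library 3.

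For complex III, mt-Cytb, which encodes cytochrome b, had 999, 923 and 1561 FPKM in YOD1 libraries and 1116, 1185 and 1100 FPKM in controls. YOD1 libraries 1 and 2 lay below all controls and YOD1 library 3 above them, which left a fold change of -0.0052 on the log2 scale (limma adjusted p = 0.989). For ATP synthase, mt-Atp8 had 969, 964 and 1241 FPKM in YOD1 libraries and 1166, 1033 and 1296 FPKM in controls. mt-Atp6, which follows on the same transcript, had 720, 705 and 953 FPKM in YOD1 libraries and 849, 765 and 949 FPKM in controls. The groups of both overlapped, and the log2 fold changes were -0.14 and -0.12.

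Complex IV, cytochrome c oxidase, reduces oxygen, and its 3 mitochondrially encoded subunits form the catalytic core. mt-Co1 was the most abundant mRNA, with 2767, 2215 and 2789 FPKM in YOD1 libraries and 3241, 2167 and 3271 FPKM in controls. mt-Co3 had 913, 715 and 959 FPKM in YOD1 libraries and 903, 746 and 1078 FPKM in controls. Both overlapped between groups (log2 fold changes -0.14 and -0.071). mt-Co2 (ENSMUSG00000064354, chrM:7013-7696 on GRCm38), the subunit that accepts electrons from cytochrome c, had 770, 626 and 716 FPKM in YOD1 libraries and 1237, 867 and 1265 FPKM in controls. Every YOD1 library lay below every control, with means of 704 ± 72.9 FPKM in YOD1 libraries and 1123 ± 222 FPKM in controls (SD, n = 3 each). The log2 fold change was -0.66 (SE 0.19), between -0.83 and -0.56 when any library was left out, short of the limma threshold (adjusted p = 0.127).

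Set against mt-Co1 of the same library, mt-Co2 stood at a ratio of 0.278, 0.282 and 0.257 in YOD1 libraries, against 0.382, 0.400 and 0.387 in controls. The ratio averaged 0.272 ± 0.0138 in YOD1 libraries and 0.390 ± 0.00952 in controls (SD, n = 3 each), so the gap between groups was wider than the spread within either. On the log2 scale the difference was -0.52 (two-sided exact permutation p = 0.1, the smallest possible) and between -0.54 and -0.47 when any library was left out. This ratio was chosen after the values were seen, and it does not depend on the scaling of the library. The corresponding ratio of mt-Co3 to mt-Co1 was 0.330, 0.323 and 0.344 in YOD1 libraries and 0.279, 0.344 and 0.329 in controls, and these overlapped.

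**Figure D2:**
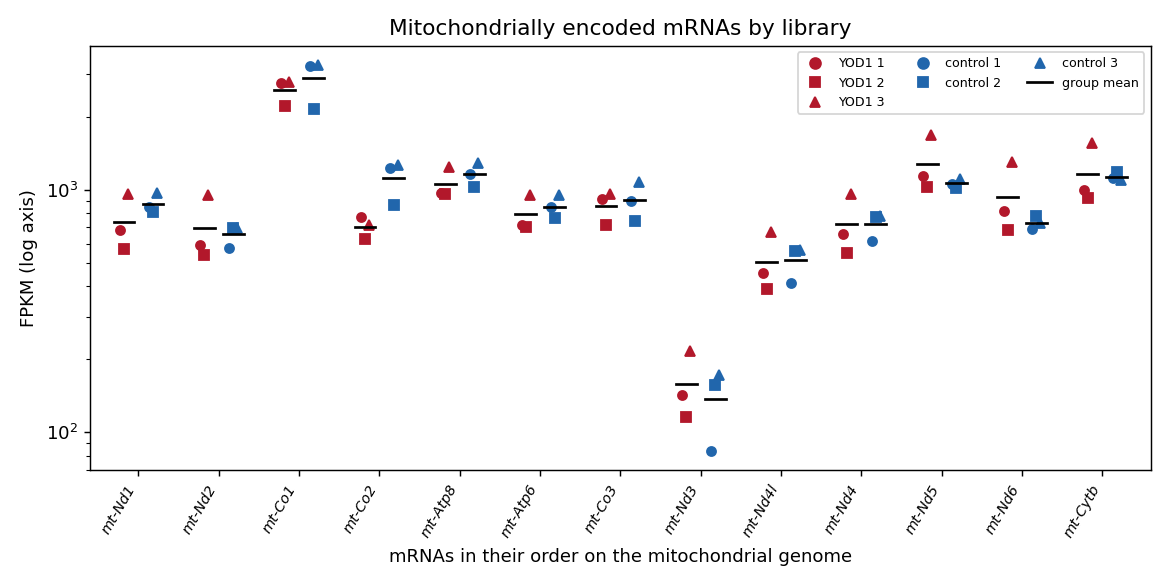
FPKM (log axis) of the 13 mitochondrially encoded mRNAs in each library, in genome order, with YOD1 libraries left of controls and a bar at each group mean. mt-Co2 is the gene whose groups do not overlap, with YOD1 libraries at 626 to 770 FPKM and controls at 867 to 1265 FPKM.

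Per length, the mRNAs spanned a wide range although 12 of 13 are read from the same strand. Over all 6 libraries mt-Co1 averaged 2742 FPKM and mt-Nd3 148 FPKM. Between them came mt-Nd5 (1173), mt-Cytb (1147), mt-Atp8 (1111), mt-Co2 (914), mt-Co3 (886), mt-Nd6 (834), mt-Atp6 (824), mt-Nd1 (808), mt-Nd4 (722), mt-Nd2 (675) and mt-Nd4l (510 FPKM). mt-Co1 stood above mt-Nd5 in 6 of 6 libraries, and so did mt-Nd1 above mt-Nd4, mt-Nd4 above mt-Nd2, mt-Nd2 above mt-Nd4l and mt-Nd4l above mt-Nd3. The order of the other neighbours, from mt-Nd5 down to mt-Nd1, held in only 3 to 5 of 6 libraries. Some mRNAs, such as mt-Co2, mt-Co3, mt-Atp6 and mt-Nd4l, have nuclear copies, given below, that were listed at nearly the same FPKM. How reads shared with such copies were counted is not shown by the values, and the part of this in the order was not tested.

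As a share of the summed FPKM of the 13 mRNAs, which also takes out the scaling of the library, 4 mRNAs did not overlap between groups. Of these 2 were lower and 2 higher in YOD1 libraries. On the FPKM scale 9.77% of all tested genes were higher and 19.1% lower without overlap, so a lack of overlap was common among all genes. mt-Co2 made up 5.88% ± 0.970 in YOD1 libraries and 8.74% ± 1.12 in controls, and mt-Nd1 made up 6.01% ± 0.391 in YOD1 libraries and 6.86% ± 0.206 in controls (SD, n = 3 each). mt-Nd5 made up 10.4% ± 0.711 in YOD1 libraries and 8.35% ± 0.450 in controls, and mt-Nd6 made up 7.51% ± 1.02 in YOD1 libraries and 5.79% ± 0.818 in controls. Shares of a fixed sum are tied to each other, and these were computed after the values were seen. The other 9 mRNAs overlapped.

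**Figure D3:**
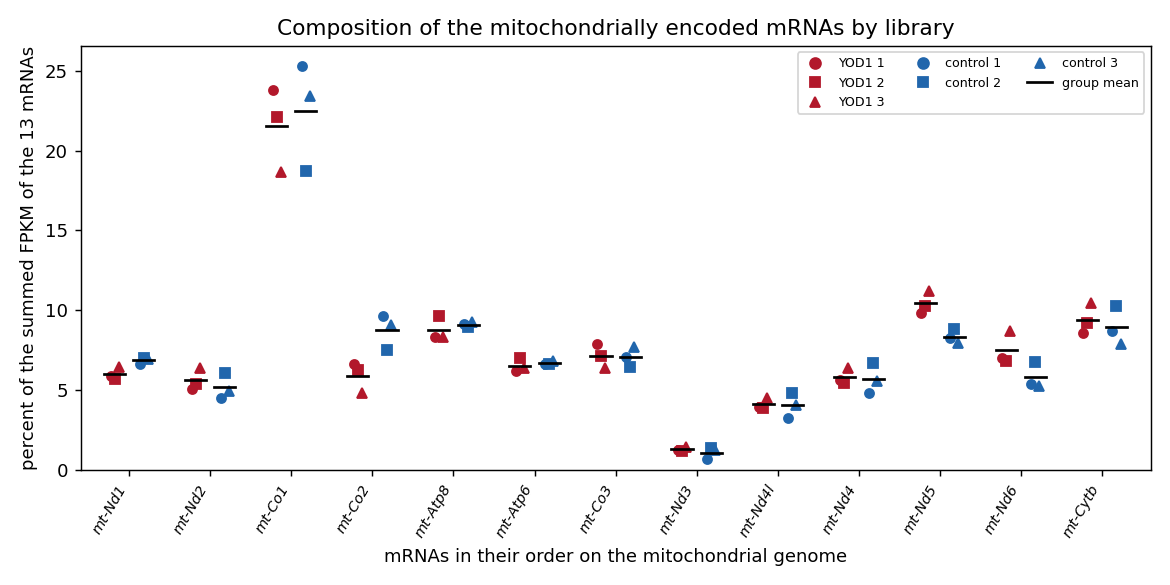
Each mRNA as a percent of the summed FPKM of the 13 mitochondrially encoded mRNAs in the same library, with YOD1 libraries left of controls and a bar at each group mean. mt-Co2 and mt-Nd1 are lower and mt-Nd5 and mt-Nd6 higher in all YOD1 libraries than in all controls, while mt-Co1 ranges from 18.6% to 25.3% with overlapping groups. On the FPKM scale 9.77% of all tested genes were higher and 19.1% lower without overlap.

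The log2 ratio of mt-Nd6 to the summed FPKM of the other 12 mRNAs compares genes annotated to the light-strand and the heavy-strand precursor. It was -3.73, -3.77 and -3.39 in YOD1 libraries and -4.13, -3.79 and -4.18 in controls. The groups did not overlap, although YOD1 library 2 and control 2 lay close together, and the difference was 0.40 (two-sided exact permutation p = 0.1, the smallest possible). It stayed between 0.29 and 0.52 when any library was left out. This ratio ranks the libraries as the share of mt-Nd6 above does, so its lack of overlap is not a separate result. mt-Nd6 lies antisense to the end of mt-Nd5, which is among the 12, and the library strand is not stated.

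The rRNAs form the core of the mitochondrial ribosome, mt-Rnr1 in the small and mt-Rnr2 in the large subunit. mt-Rnr1 (ENSMUSG00000064337) had 98.8, 86.3 and 72.9 FPKM in YOD1 libraries and 79.8, 50.5 and 57.2 FPKM in controls. Control 1 lay above YOD1 library 3, and the other values were separate (log2 fold change 0.47, SE 0.18, limma adjusted p = 0.202). mt-Rnr2 (ENSMUSG00000064339) had 42.6, 42.4 and 42.0 FPKM in YOD1 libraries and 37.5, 27.9 and 34.0 FPKM in controls. Its YOD1 values were nearly equal and all lay above the controls, and the difference did not pass the test (log2 fold change 0.35, SE 0.14, limma adjusted p = 0.194).

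Both rRNAs stayed low beside the mRNAs in these libraries, with 0.0380% ± 0.00480 of the summed FPKM in YOD1 libraries and 0.0300% ± 0.00593 in controls (SD, n = 3 each, two-sided exact permutation p = 0.2). The log2 ratio of summed rRNA to summed mRNA was -6.36, -6.28 and -7.03 in YOD1 libraries and -6.77, -7.21 and -7.26 in controls. YOD1 library 3 fell among the controls, and the difference was 0.52 (two-sided exact permutation p = 0.2). A cytosolic rRNA sequence, Rn18s-rs5, also differed between groups, at 3.14%, 3.90% and 2.17% of the summed FPKM in YOD1 libraries and 0.733%, 0.421% and 0.566% in controls. The part of this difference in the values of the mitochondrial rRNAs and tRNAs was not tested.

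The tRNAs summed to 0.514%, 0.547% and 0.830% of all FPKM in YOD1 libraries and 0.304%, 0.504% and 0.538% in controls. Of the 20 tested, 18 had a log2 fold change above 0, beside 36.4% of all tested genes. Under the scaling alternatives 17 to 20 did, and without YOD1 library 3 15 did. Their median was 0.83, without YOD1 library 3 it was 0.55, and without control 1 it was 0.23. The groups did not overlap for 8 tRNAs, all higher in YOD1 libraries as were 9.77% of all tested genes. By annotation 4 of the 8 belong to the heavy-strand and 4 to the light-strand precursor, and the library strand is not stated. mt-Tw, mt-Ta, mt-Tn and mt-Tc lie within chrM:4950-5257, and mt-Tt and mt-Tp within chrM:15289-15422. A fragment near the 300 bp insert can cover several of them, so the 8, like the 18 above 0, are not separate observations. The median was 0.87 over the 12 tested tRNAs annotated to the heavy-strand precursor and 0.72 over the 8 annotated to the light-strand precursor. This order turned without control 1, at 0.070 and 0.58.

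mt-Tp (ENSMUSG00000064372), the proline tRNA, has the highest position on chrM of the genes annotated to the light-strand precursor. It had 199.96, 172 and 216 FPKM in YOD1 libraries and 110, 93.4 and 146 FPKM in controls. All YOD1 values lay above all controls, with means of 196 ± 22.3 FPKM in YOD1 libraries and 117 ± 26.9 FPKM in controls (SD, n = 3 each). Its log2 fold change was 0.76 (SE 0.18), and the limma adjusted p of 0.0931 was the lowest of all members. Without control 3 the log2 fold change was 0.94 and the limma adjusted p was 0.0311, so the call depended on that library. mt-Tt, the adjoining threonine tRNA on the other strand, had 55.2, 53.7 and 97.1 FPKM in YOD1 libraries and 25.3, 42.5 and 45.6 FPKM in controls. These groups did not overlap either (log2 fold change 0.83, SE 0.27, limma adjusted p = 0.149).

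mt-Tk (ENSMUSG00000064355), the lysine tRNA directly after mt-Co2, had 14.6, 15.5 and 26.4 FPKM in YOD1 libraries and 5.58, 8.38 and 11.2 FPKM in controls. It was higher in every YOD1 library, with the largest log2 fold change of the members (1.08, SE 0.27, limma adjusted p = 0.105). As a percent of mt-Co2 in the same library it stood at 1.89, 2.48 and 3.69 in YOD1 libraries and 0.451, 0.966 and 0.888 in controls. The tRNA and the mRNA beside it therefore lay on opposite sides of their controls.

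The 5 neighbours whose sequences are printed above shared a pattern. mt-Ta had 154, 229 and 336 FPKM in YOD1 libraries and 104, 150 and 126 FPKM in controls. mt-Tn had 178, 267 and 387 FPKM in YOD1 libraries and 116, 171 and 147 FPKM in controls. mt-Tc had 103, 149 and 215 FPKM in YOD1 libraries and 61.8, 100.1 and 89.8 FPKM in controls. In all 3 the lowest YOD1 value, from library 1, lay just above the highest control value, from control 2. The log2 fold changes were 0.86, 0.88 and 0.85 (limma adjusted p = 0.134, 0.131 and 0.141).

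mt-Ty had 51.6, 71.7 and 108 FPKM in YOD1 libraries and 36.2, 55.0 and 48.2 FPKM in controls, where control 2 lay above YOD1 library 1. mt-Tw, the member of this cluster on the heavy-strand precursor, had 37.2, 33.5 and 65.2 FPKM in YOD1 libraries and 22.6, 32.3 and 32.5 FPKM in controls, without overlap. Their log2 fold changes were 0.68 and 0.57 (limma adjusted p = 0.186 and 0.225). As a percent of mt-Nd2, the mRNA next to this cluster, mt-Tn stood at 30.05, 49.8 and 40.5 in YOD1 libraries and 20.3, 24.5 and 21.1 in controls. mt-Tw stood at 6.28, 6.23 and 6.83 percent of mt-Nd2 in YOD1 libraries and 3.94, 4.62 and 4.69 percent in controls. The same ratio did not overlap for mt-Ta, mt-Tc and mt-Ty, which were all higher in YOD1 libraries. As a percent of mt-Co1, the mRNA on the other side, the groups overlapped for all 5, with mt-Tn at 6.43, 12.1 and 13.9 in YOD1 libraries and 3.58, 7.91 and 4.48 in controls. mt-Nd2 itself differed little, with a log2 fold change of 0.041 that turned to -0.013 and -0.053 under the rescaling to a total without rRNA genes or without mitochondrially encoded genes.

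**Figure D4:**
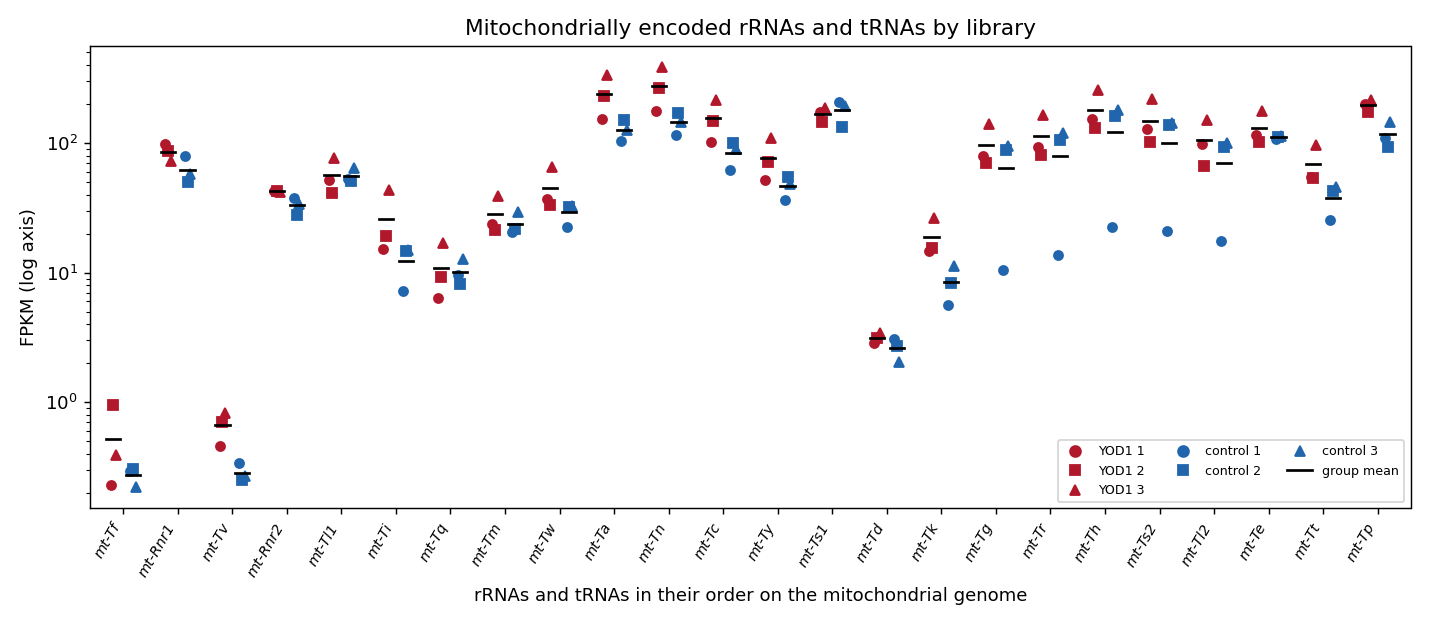
FPKM (log axis) of the 22 tRNAs and both rRNAs in each library, in genome order, with YOD1 libraries left of controls and a bar at each group mean. Group means of mt-Tw to mt-Ty are higher in YOD1 libraries, with overlap for mt-Ty and none of the 5 past the limma test, and control 1 lies far below the other libraries for mt-Tg, mt-Tr, mt-Th, mt-Ts2 and mt-Tl2.

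A stretch of 5 tRNAs around mt-Nd3 and mt-Nd4 depended on control 1. mt-Th, the histidine tRNA, had 154, 131 and 259 FPKM in YOD1 libraries and 22.3, 163 and 180 FPKM in controls. mt-Tg had 80.1, 70.5 and 139 FPKM in YOD1 libraries and 10.5, 88.1 and 95.1 FPKM in controls. Control 1 stood at 11.5% of the mean of the other controls for mt-Tg, 12.2% for mt-Tr, 13.04% for mt-Th, 15.0% for mt-Ts2 and 18.2% for mt-Tl2. In the same library the mRNAs between them were less low, with mt-Nd3 at 51.1%, mt-Nd4l at 73.7% and mt-Nd4 at 78.8% of the mean of the other controls.

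mt-Tr, the arginine tRNA, had 93.6, 81.0 and 164 FPKM in YOD1 libraries and 13.7, 106 and 120 FPKM in controls. mt-Ts2, a serine tRNA without the usual D arm, had 127, 101 and 218 FPKM in YOD1 libraries and 21.0, 137 and 143 FPKM in controls. mt-Tl2, a leucine tRNA, had 98.1, 66.5 and 150 FPKM in YOD1 libraries and 17.6, 93.7 and 99.8 FPKM in controls. For all 5 the groups overlapped, with YOD1 library 2 below controls 2 and 3. Their log2 fold changes were 0.84 to 1.01 with all libraries (limma adjusted p = 0.394 to 0.435) and -0.063 to 0.037 without control 1.

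The remaining tRNAs with at least 1 FPKM on average were spread widely. mt-Ti, the isoleucine tRNA, had 15.2, 19.0 and 43.2 FPKM in YOD1 libraries and 7.23, 14.6 and 15.0 FPKM in controls. Its groups did not overlap, though YOD1 library 1 and control 3 were nearly equal (log2 fold change 0.93, SE 0.37, limma adjusted p = 0.204). Its neighbours in the cluster after mt-Nd1 overlapped, with mt-Tq, the glutamine tRNA, at 6.33, 9.27 and 16.9 FPKM in YOD1 libraries and 9.51, 8.10 and 12.7 FPKM in controls. mt-Tm, the methionine tRNA, had 23.9, 21.4 and 39.0 FPKM in YOD1 libraries and 20.7, 21.9 and 29.1 FPKM in controls.

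mt-Tl1, the leucine tRNA between mt-Rnr2 and mt-Nd1, had 51.5, 41.4 and 76.2 FPKM in YOD1 libraries and 52.8, 50.6 and 64.5 FPKM in controls. mt-Te, the glutamate tRNA, had 115, 102 and 177 FPKM in YOD1 libraries and 108, 111 and 113 FPKM in controls. mt-Td, the aspartate tRNA, was the lowest of the tested tRNAs, with 2.85, 3.13 and 3.40 FPKM in YOD1 libraries and 3.06, 2.74 and 2.06 FPKM in controls. All 3 overlapped. mt-Ts1, the other serine tRNA, had 175, 144 and 186 FPKM in YOD1 libraries and 208, 133 and 194 FPKM in controls, also with overlap.

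Some tRNAs kept a nearly fixed proportion to the longer RNA beside them. mt-Ts1 stood between 5.94 and 6.67 percent of mt-Co1 in all 6 libraries, and mt-Te between 13.7 and 15.6 percent of mt-Nd6. mt-Ts1 is annotated to the strand opposite mt-Co1 and overlaps its end, and the library strand is not stated. Beside mt-Co2, the next mRNA on its other side, mt-Ts1 averaged 23.9 percent in YOD1 libraries and 15.9 percent in controls, without overlap. mt-Tl1 stood at 7.55, 7.23 and 7.89 percent of mt-Nd1 in YOD1 libraries and 6.23, 6.23 and 6.66 percent in controls. By contrast mt-Tk as a percent of mt-Co2 ranged 8.19-fold between the lowest and highest library. Fragments that span such a boundary count towards both genes or only 1 of them, which the table does not show.

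Between biotypes, the mean log2(FPKM + 1) of the 20 tested tRNAs minus that of the 13 mRNAs was -3.68, -3.46 and -3.33 in YOD1 libraries and -4.72, -3.87 and -3.95 in controls. The groups did not overlap, and the difference of 0.68 had a two-sided exact permutation p of 0.1, the smallest possible. Without control 1 the difference was 0.42. With the 5 tRNAs around mt-Nd3 and mt-Nd4 that were lowest in control 1 left out, it was 0.58 and the groups still did not overlap. Control 1 was also the lowest library for other tRNAs, among them mt-Ti, mt-Tk and mt-Tt, at 48.8%, 56.9% and 57.4% of the other controls' mean. This was not so for all, with mt-Ts1 at 127% and mt-Td at 128%. Without the 5 tRNAs control 1 was still lowest, at -4.47 beside -4.24 and -4.31 in controls 2 and 3 by this measure. This measure was chosen after the values were seen and does not change with the scaling of the library, apart from the pseudocount.

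**Figure D5:**
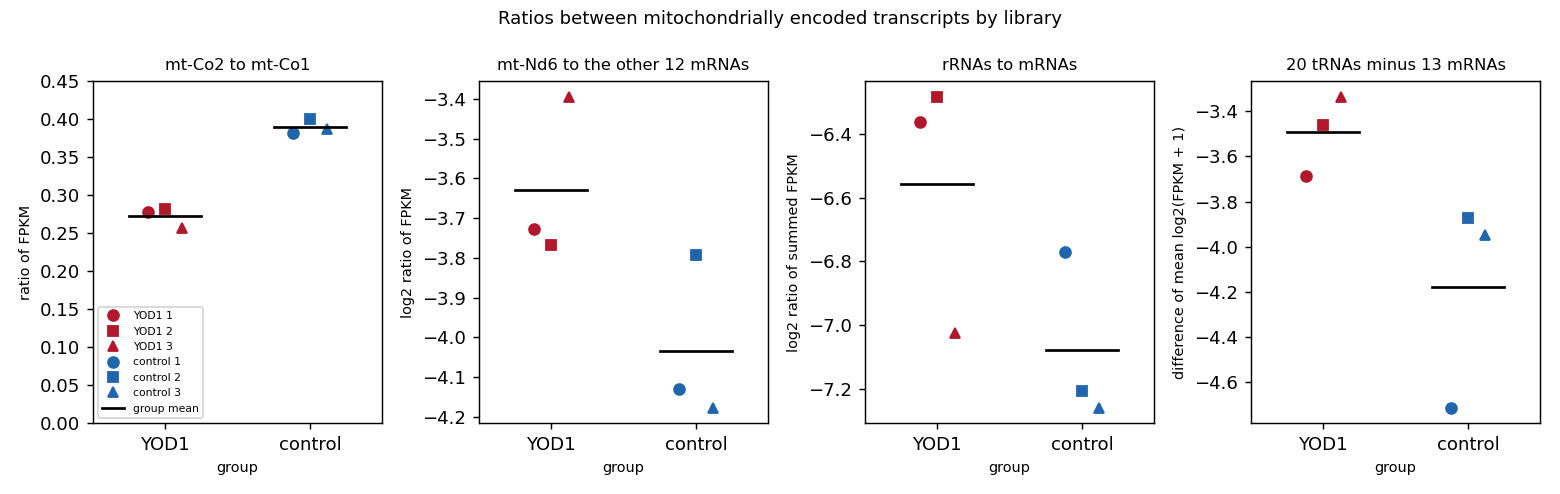
Ratios between mitochondrially encoded transcripts in each library, with YOD1 left of control, points for libraries and bars for group means. From left to right they are mt-Co2 to mt-Co1 (linear axis from 0), log2 of mt-Nd6 to the other 12 mRNAs, log2 of summed rRNAs to summed mRNAs, and the mean log2(FPKM + 1) of 20 tRNAs minus that of 13 mRNAs; the groups overlap only in the rRNA panel.

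Nuclear copies of mitochondrial DNA share these sequences. Of 10 such pseudogenes with a mean of at least 1 FPKM, 7 lie side by side on the minus strand of chromosome 1 and 3 on chromosome 2. Gm28661 is identical to mt-Co2 over 681 of 681 aligned bases, and it was listed at 765, 620 and 712 FPKM in YOD1 libraries and 1229, 862 and 1259 FPKM in controls. That is 0.991 to 0.995 of the value of mt-Co2 in the same library, so reads of both copies cannot be told apart, and its lower values are not a separate observation. Gm10925, identical to mt-Atp6 over 678 bases, stood at 1.06 times mt-Atp6, Gm28437 at 0.977 to 0.999 of mt-Co3 and Gm10222 at 0.955 to 1.01 of mt-Nd4l. Gm28439, identical to mt-Nd4 over 876 bases, stood at 0.629 to 0.672 of it.

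The other copies on chromosome 1 each differ at 1 base of the aligned stretch. Gm28438 differs from mt-Nd3 and stood at 0.507 to 0.897 of its FPKM, and Gm29216 stood at 0.136 to 0.146 of mt-Co1. The first bases of mt-Nd3 and Gm28438 are printed to show the position at which reads could separate them, with the differing base, T3C counted from the first base shown, in capitals.
mt-Nd3, chrM:9459-9491, plus strand: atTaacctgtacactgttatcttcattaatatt
Gm28438, chr1:24613087-24613119, minus strand: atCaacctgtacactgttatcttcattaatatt
The copies on chromosome 2 are less alike and were low, with Gm13339, Gm13340 and Gm13341 at 96.7%, 97.6% and 97.6% identity to mt-Nd2, mt-Co1 and mt-Co2 and means of 1.12, 1.297 and 1.43 FPKM. None of the 9 tested copies passed the limma threshold, and Gm28661 was the copy whose groups did not overlap.

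The nuclear genes that serve these transcripts were read from the same fit. Of 22 tested genes for upkeep and transcription of mitochondrial DNA, 0 passed the limma test, 13 lay above 0 on the log2 scale and the median was 0.082. The lowest p-values, which did not pass, belonged to Top1mt, the mitochondrial topoisomerase, with 32.9, 31.1 and 33.4 FPKM in YOD1 libraries and 21.8, 22.0 and 29.96 FPKM in controls (limma adjusted p = 0.183), and to Polrmt, the mitochondrial RNA polymerase, with 25.7, 31.3 and 34.2 FPKM in YOD1 libraries and 19.6, 23.3 and 28.3 FPKM in controls (limma adjusted p = 0.259). Of 31 tested genes for processing and decay of mitochondrial RNA, 0 passed the limma test, with 13 above 0, 18 below and a median of -0.021. Mrm3, which methylates the large mitochondrial rRNA, had 34.3, 33.8 and 35.5 FPKM in YOD1 libraries and 25.7, 19.8 and 24.7 FPKM in controls, without overlap (limma adjusted p = 0.102). Fastkd1, of a family that binds mitochondrial RNA, had 1.26, 1.73 and 0.909 FPKM in YOD1 libraries and 2.32, 2.26 and 2.58 FPKM in controls, without overlap and in the other direction (limma adjusted p = 0.131).

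The list of genes for charging these tRNAs, mostly mitochondrial tRNA synthetases, held the single gene of the nuclear lists that passed. Lars2, the leucine enzyme, had 27.6, 34.5 and 31.3 FPKM in YOD1 libraries and 11.8, 10.5 and 10.4 FPKM in controls. It rose in YOD1 libraries, with means of 31.1 ± 3.45 FPKM in YOD1 libraries and 10.9 ± 0.793 FPKM in controls (SD, n = 3 each, log2 fold change 1.43, SE 0.14, limma adjusted p = 0.00378). It passed under 13 of 14 alternatives, the exception being no filter on low values (limma adjusted p = 0.129, range over the alternatives 0.00182 to 0.129). The cytosolic rRNA sequence Rn18s-rs5 was higher in the same libraries, at the shares given above, and its part in the value of Lars2 was not tested. Of the 21 tested genes of this list, among them the amidotransferase subunits Gatb, Gatc and Qrsl1 and the formyltransferase Mtfmt, 19 lay above 0, their median being 0.11 beside -0.10 for all tested genes. The tRNAs that LARS2 loads, mt-Tl1 and mt-Tl2, had log2 fold changes of -0.028 and 0.84, neither past the test, and without control 1 mt-Tl2 stood at 0.037.

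Of 10 tested regulators of mitochondrial biogenesis 0 passed the limma test, 3 lay above 0 and the median was -0.11. Gabpa and Yy1, transcription factors of nuclear genes for mitochondrial proteins, had the lowest p-values and did not pass (limma adjusted p = 0.239 and 0.291). Among the nuclear-encoded subunits of the same complexes, 75 were tested, 0 passed the limma test and 51 lay above 0, and their median was 0.17. The median was 0.18 for 37 subunits of complex I, 0.15 for 9 of complex III, 0.21 for 11 of complex IV and 0.10 for 18 of ATP synthase. Over the mitochondrially encoded subunits it was 0.041 for 7 of complex I and -0.14 for 3 of complex IV, with -0.0052 for mt-Cytb and -0.13 for the pair of ATP synthase subunits.

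In complex IV, where mt-Co2 was lower in YOD1 libraries, Cox5b had 22.0, 29.5 and 12.7 FPKM in YOD1 libraries and 6.70, 7.68 and 9.75 FPKM in controls. Cox8a had 207, 228 and 98.9 FPKM in YOD1 libraries and 39.4, 36.6 and 91.1 FPKM in controls. Both nuclear subunits were higher in every YOD1 library and did not pass the test (limma adjusted p = 0.0796 and 0.0874). They passed without YOD1 library 3 (limma adjusted p = 0.00495 and 0.0216) and with median-ratio scaling (0.0262 and 0.0392), and Cox8a also without control 3 (0.0240). The lowest p-values elsewhere, also without a pass, were those of Ndufb1 and Ndufs8 in complex I (limma adjusted p = 0.115 and 0.118), Uqcrc1 and Cyc1 in complex III (limma adjusted p = 0.124 and 0.128) and Atp5d and Atp5b in ATP synthase (limma adjusted p = 0.0627 and 0.148). All 6, which were picked by p, were higher in every YOD1 library than in every control. Higher without overlap were 9 of 37 tested subunits of complex I and 2 of 9 of complex III. In complex IV 3 of 11 were, and in ATP synthase 5 of 18. Lower without overlap were 1 in complex III (Uqcrh) and 1 in complex IV (Cox7b). Of all tested genes 9.77% were higher and 19.1% lower without overlap. Atp5d passed without YOD1 library 3, without control 3 and with median-ratio scaling (limma adjusted p = 0.0213, 0.0411 and 0.0239).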

How the data were processed

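The analysis used 1 deposited table. It gives every gene an FPKM value in each library, as the authors deposited it. Per the file headers it also carries the authors' ratio (fold) of group means, the log2 of that ratio, a p-value and a q-value. Recomputed from the mean FPKM, the deposited ratio differed by at most 3.43e-13 in relative terms. Which test gave the authors' p-values was not given in the sources used here. Tools named in the submitters' processing notes are StringTie 1.3.0, HISAT2 2.0 and Bowtie 0.12.2, with mm8 as genome build and no roles stated. The gene identifiers matched a later annotation (below), so the build behind the values is uncertain. No column of per-sample values was left unused. Any pair of libraries had at most 6 identical values above 0 and was kept as separate samples. From steps in the low values, the YOD1 libraries had roughly 0.803 to 0.844 of the depth of control 1, an estimate that 3.76% to 4.80% of the low genes shared.

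FPKM were transformed to log2(FPKM + 1), a scale that understates changes of low genes. Genes that reached 1 FPKM in 3 or more of 6 libraries were compared by limma 3.58.1 in R 4.3.3, with variances moderated along an intensity trend. The tests were two-sided, and p was adjusted by Benjamini-Hochberg over all 11483 tested genes, with a threshold of 0.05. Tested on simulated data with 200 of 11483 genes changed, this fit recovered 62% of log2 changes of 1 and 94% of changes of 2, with 2 false calls among 158. Single values per library were compared by exact permutation. The members, gene lists and tests were chosen with earlier results of these data known. Named were all members, Yod1, nuclear pseudogenes with a mean of at least 1 FPKM and, per list, members past the threshold or the 2 with the lowest p. Sequences and positions come from GENCODE M21 transcripts on GRCm38, matched by gene identifier for 37 of 37 members, and pseudogenes were aligned with Biopython 1.88. Alternatives were other filters, pseudocounts, scalings and variance models, a replicate block and each library left out. Further tools were Python 3.11.15, numpy 2.4.6, pandas 2.3.3 and matplotlib 3.10.9.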

Additional observations from a re-analysis of the deposited data

How the results depend on the processing

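The number of members past the limma threshold was 0 under every alternative but 1, which left out control 3 and gave 1 call (mt-Tp), so leaving out a library gave 0 to 1. Calls over all genes, 55 in the reported fit, were 0 without a filter on low values, 149 with median-ratio scaling, 34 with a common total without rRNA genes, 36 with a common total without mitochondrially encoded genes, and 18 to 240 with a library left out (the 240 without control 3). The replicate numbers were not treated as pairs, since deviations of same-numbered samples correlated at 0.296, -0.121 and -0.112. A replicate block gave 41 calls over all genes and 0 members, with mt-Tk just short of the threshold (limma adjusted p = 0.0512). Of the members' fold changes under the alternatives, 449 kept their direction and side of the threshold, 39 in 12 members changed sign and 1 (mt-Tp) passed. With median-ratio scaling the log2 fold change turned to 0.067 for mt-Tl1, 0.028 for mt-Ts1, 0.025 for mt-Co3, 0.050 for mt-Nd4l, 0.061 for mt-Nd4 and 0.091 for mt-Cytb. With the total without rRNA genes it turned to -0.036 for mt-Tq and -0.013 for mt-Nd2, and with the total without mitochondrially encoded genes to -0.073 for mt-Tq and -0.053 for mt-Nd2. With a library left out, values changed sign for mt-Tl1 (-0.26 to 0.17), mt-Tq (-0.34 to 0.31), mt-Tm (-0.059 to 0.36), mt-Nd2 (-0.21 to 0.20), mt-Ts1 (-0.26 to 0.056), mt-Co3 (-0.21 to 0.060), mt-Nd3 (-0.10 to 0.42), mt-Tr (-0.063 to 1.46), mt-Nd4l (-0.27 to 0.12), mt-Nd4 (-0.26 to 0.14), mt-Te (-0.034 to 0.36) and mt-Cytb (-0.24 to 0.14). The cause was not tested. Alternatives read for the 16 named nuclear genes, added after the data were seen, kept the call in 209 cases, while 8 passed that had not (Cox5b, Cox8a, Atp5d) and 1 no longer did (Lars2 without a filter). Read depth is unknown, so no counting error can be given for any value.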
